A study of Mus musculus with 4 samples.

Results

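The genes described here encode proteins of the lysosome, the acidic compartment in which cells break down proteins, lipids and sugar chains. They were chosen by symbol and fall into cathepsins and legumain (11 genes), other hydrolases (12 genes), and membrane proteins and lipid carriers (8 genes). Of these 31 genes, 30 were measured, among 18193 genes on the arrays. Cd63, a membrane protein of late endosomes and lysosomes, was not analysed here, because the annotation used paired no probe set with it alone. Each gene was read from 1 probe set, the one with the highest mean over the arrays, as the log2 of its intensity. Values of different genes come from different probes and are not compared with each other.

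The RNA came from lineage-negative, cKit+, Sca1+ (LSK) cells of mouse foetal liver at E13.5, the sorted fraction in which blood stem cells and early progenitors are found. All 4 samples were labelled female and Hes1 GFP/WT, so 1 Hes1 allele reported by GFP in the controls as well. Hes1 encodes a repressor that Notch signalling switches on. The GFP sort gave 3 arrays of HES1-GFP negative cells and 1 of HES1-GFP positive cells, and the comparison asks how LSK cells of these classes differ. Whether litters, pools of embryos or sorts were separate for the 3 negative samples is not in the labels, so the p-values measure only the spread between these samples, which may be technical.

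Newly made hydrolases receive a mannose 6-phosphate tag that sends them to the lysosome, where a proton pump keeps the lumen acidic and heavily glycosylated membrane proteins line the wall. Transcription factors of the TFEB family switch on many lysosomal genes together by binding an E-box-like element near their start sites. Lysosomes are most abundant in phagocytes such as the macrophages of foetal liver, and blood stem cells are known for using lysosomes to clear mitochondria and to stay quiescent.

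None of the lysosomal genes differed past the threshold between negative and positive labels. limma, fitted over all genes with Benjamini-Hochberg adjustment, called 0 of the 30 genes at an adjusted p under 0.05, as it did 0% of all genes in either direction. At an unadjusted p under 0.05 limma gave 2, Neu1 on the lower side and Gaa on the higher side, where 1.39% of all genes were lower and 2.65% higher. With limma's trend and robust settings the counts were again 0 and 2. The array labelled positive lay below the mean of the negative arrays in 22 of the 30 genes and above it in 8. It lay below all 3 negative arrays in 9 genes (30%, against 23.0% of all genes), above them in 2 (6.67%, against 23.6%), and within their range in 19. Of the 30, 0 lay at least 1 log2 unit above the negative range, as 0.841% of all genes did. The count below was 11 without negative replicate 1, against 34.2% of all genes, and 10 without replicate 2, against 30.3%. Without replicate 3 it became 19, against 31.4% of all genes. The count above was 5 without replicate 1, against 30.1% of all genes, and 4 without replicate 2, against 31.1%. With 2 arrays the negative range is narrower for every gene.

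The 4 arrays stood in 1 order for most of these genes. Negative replicates 1 and 2 both lay above negative replicate 3 and above the array labelled positive in 17 of the 30 genes, an order found in 17.4% of all genes. The opposite order, with replicates 1 and 2 both lowest, held for 1 of the 30, against 23.7% of all genes. The first order was the rule among cathepsins and legumain, with 9 of 11 genes, and held for 4 of 12 other hydrolases and 4 of 7 membrane proteins and lipid carriers. The median gap between replicates 1 and 2, taken without sign, was 0.17 log2 units over the 30 genes (0.26 over all genes). That between replicates 1 and 3 was 0.61 (0.28 over all genes). The negative arrays thus differed among themselves in these genes. The array labelled positive lay nearer to replicate 3, at a median gap of 0.28, than to replicate 1 at 0.58 or replicate 2 at 0.40. Over all genes it also lay nearest to replicate 3, at 0.21, against 0.26 for replicate 1 and 0.27 for replicate 2.

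**Figure D1:**
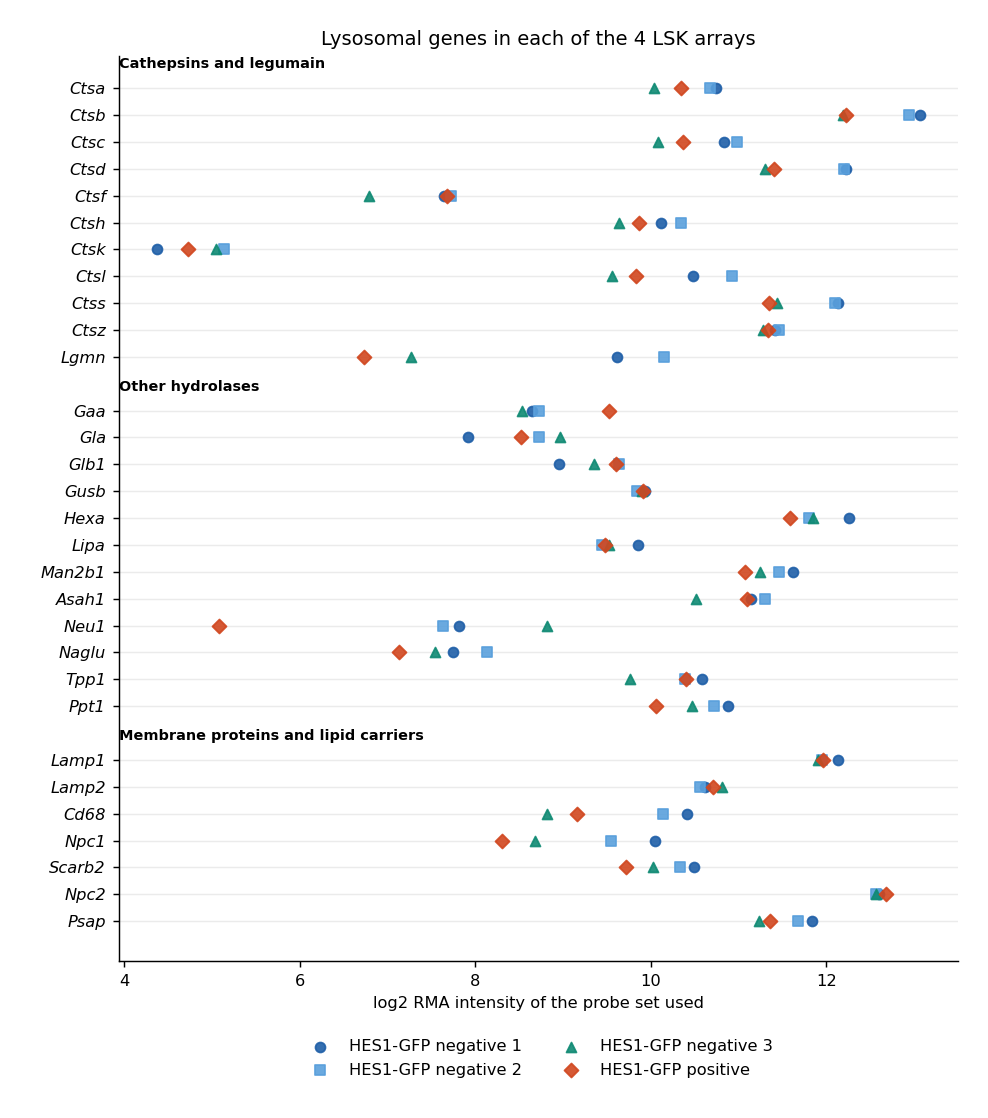
Log2 RMA intensity (horizontal axis) of 30 lysosomal genes, 1 row per gene, with 1 point for each of the 3 HES1-GFP negative arrays and the array labelled HES1-GFP positive. In 9 of 11 cathepsin and legumain genes the points of negative replicates 1 and 2 lie to the right of the other 2 arrays, and the lone low point of Neu1 is the array labelled positive.

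Several features of the arrays bear on these values. Hes1 went against its label, with 8.78, 9.07 and 6.70 log2 units in negative replicates 1, 2 and 3 and 6.57 in the array labelled positive (difference of -1.62, limma adjusted p of 1.00). Groups are therefore called by their labels, and every direction is that of the label. Median intensities of the arrays were 74.7 to 76.1 on the linear scale. The difference between 3' and 5' control probe sets, a sign of RNA integrity and amplification, moved with the order of the arrays. For Gapdh it was 0.78 and 0.77 log2 units in negative replicates 1 and 2, 0.67 in replicate 3 and 0.65 in the array labelled positive. For Actb it was -0.29, -0.31, -0.35 and -0.35, and the part of RNA quality in the lysosomal values was not tested. Kit was at 9.90, 9.72, 9.68 and 10.13 in negative replicates 1, 2 and 3 and the array labelled positive, and Cd34 at 11.42, 10.80, 11.70 and 11.87, while Ly6a, which encodes Sca1, was not analysed here. Of 12 stem and progenitor markers measured, the array labelled positive lay above the negative range in 6 (50%, against 23.6% of all genes) and below it in 1 (8.33%, against 23.0%). That 1 was Flt3, named after its values were seen, at 12.12, 11.95, 11.63 and 11.07. Replicates 1 and 2 were highest in 4 of the 12 (33.3%, against 17.4% of all genes) and lowest in 6 (50%, against 23.7%).

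Several lists of mature cell markers moved with the same split, although the cells had been sorted as lineage negative. The genes named from a list are those with the largest difference of the array labelled positive from the negative mean. Replicates 1 and 2 were the highest arrays in 20 of 20 macrophage markers, whose summed linear intensity was 46362 and 44510 in replicates 1 and 2, 10186 in replicate 3 and 9674 in the array labelled positive. Cd163, a scavenger receptor, stood at 6.60, 7.26, 6.20 and 3.78 log2 units in the same sequence of arrays. Vcam1, an adhesion molecule, stood at 11.36, 10.98, 8.81 and 7.31, and Siglec1, a sialic acid receptor of macrophages, at 9.22, 8.57, 6.81 and 5.19. Unlike in these 3, the array labelled positive was not lowest in most of the list. It lay below the negative range in 9 of the 20 (45%, against 23.0% of all genes) and within it in 11. It was above replicate 3 in 11, at a median difference of 0.13 from that array. None of the 20 macrophage markers was at or below the median probe set level on all arrays. B lineage markers (9 of 9) had sums of 23189, 23068, 4070 and 4082, and the named genes were Cd79a, Ebf1 and Pax5. The same order held for 7 of 10 endothelial markers, Cdh5, Lyve1 and Kdr among them, with sums of 3882, 3699, 1139 and 1054. Mast cell and basophil markers shared it in 5 of 11, Cma1, Tpsb2 and Tpsab1 among them, with sums of 10871, 10941, 781 and 851. The opposite order held for 1 of the 11, Mcpt8, named after its values were seen, at 5.91, 6.24, 7.78 and 7.55. Of the 11, 4 were at or below the median probe set level on all arrays. Granulocyte and monocyte markers ran the other way in 13 of 13, Ctsg, Elane and Ms4a3 among them, with sums of 49682, 51848, 94861 and 95938, as did 7 of 10 dendritic cell markers, among them Cd209a and Clec10a but not Siglech. Erythroid markers stood in the opposite order in 5 of 8, with sums of 28774, 28449, 34205 and 34243, while of 8 megakaryocyte markers 3 had the order and 2 the opposite one. The part of these other cells in the lysosomal values was not tested, and in sorted bulk RNA fewer cells of a type and less RNA per cell cannot be told apart.

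**Figure D2:**
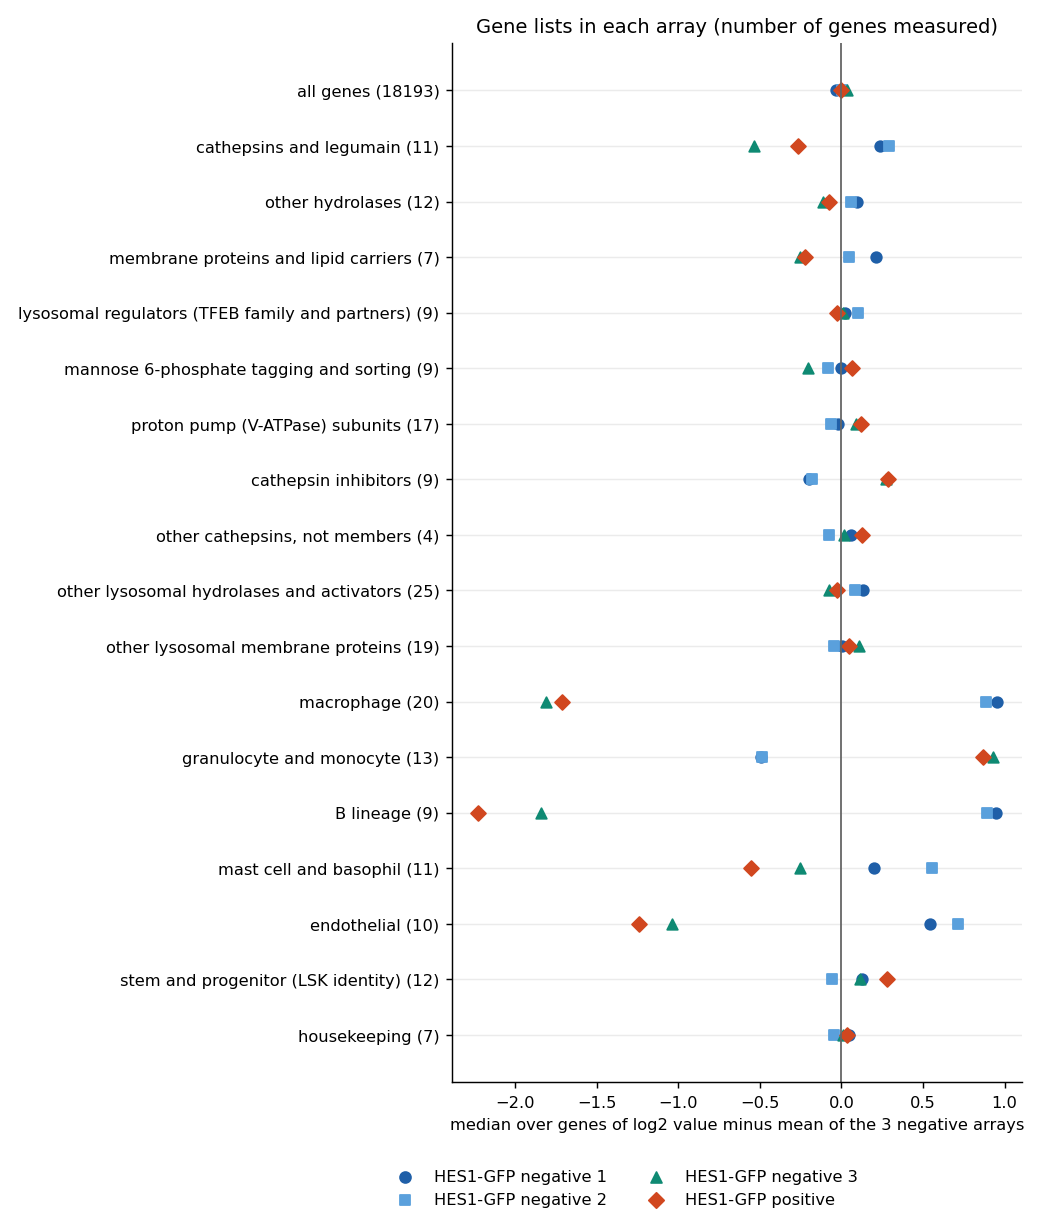
Median over each list's genes of the log2 value minus the mean of the 3 negative arrays (horizontal axis), 1 point per array, for the lysosomal lists and for marker lists, with the number of genes measured in brackets. Cathepsins and legumain lie at 0.24, 0.29, -0.54 and -0.26 in negative replicates 1, 2 and 3 and the array labelled positive. The macrophage list, with points further apart, lies on the same sides of 0, as do the B lineage, endothelial, and mast cell and basophil lists. So do the other hydrolases, the membrane proteins and lipid carriers, and the other lysosomal hydrolases and activators.

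Cathepsins and legumain gave the widest shared pattern. The array labelled positive was below replicate 2 in 11 of 11 genes and below replicate 1 in 9, but above replicate 3 in 8. The median difference of the array labelled positive was -0.26 log2 units from the negative mean, against -0.001 over all genes, and it was -0.46, -0.61 and 0.10 from replicates 1, 2 and 3 taken singly. Only Ctss and Lgmn lay below all negative arrays, and none lay above them.

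Legumain (Lgmn), a cysteine protease that cuts after asparagine and activates several cathepsins, had the largest split. Its log2 intensity was 9.62 in negative replicate 1, 10.15 in replicate 2, 7.27 in replicate 3 and 6.73 in the array labelled positive. Replicates 1 and 2 were high, replicate 3 and the array labelled positive low, and the latter lay at -0.54 log2 units from the lowest negative value. The difference was -2.28 log2 units with a standard error of 1.28 (limma adjusted p of 1.00), and the negative geometric mean was 4.86-fold that of the array labelled positive. It was -3.15 without replicate 3.

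Among the papain-like cysteine cathepsins, Ctsb, an abundant endo- and dipeptidase, was at 13.07, 12.94, 12.20 and 12.22 in negative replicates 1, 2 and 3 and the array labelled positive. Ctsl, an endopeptidase that also processes other cathepsins, was at 10.49, 10.93, 9.56 and 9.83 in the same order. Ctss, which trims the invariant chain in antigen-presenting cells, was at 12.13, 12.10, 11.44 and 11.35. In all 3 genes replicates 1 and 2 were the highest arrays, close together in Ctsb and Ctss but not in Ctsl, and the array labelled positive was close to replicate 3, above it in Ctsb and Ctsl and below it in Ctss. Their differences from the negative mean were -0.51 ± 0.43 (limma SE) for Ctsb, -0.49 ± 0.61 for Ctsl and -0.55 ± 0.37 for Ctss.

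Ctsc, which activates the serine proteases of granulocytes and mast cells, was at 10.83, 10.98, 10.09 and 10.37. Ctsh, an aminopeptidase, was at 10.12, 10.34, 9.64 and 9.87. Ctsz, a carboxypeptidase, was at 11.42, 11.46, 11.28 and 11.34. In the probe sets used, all 3 kept the order with replicates 1 and 2 highest, with differences of -0.26, -0.17 and -0.05 from the negative mean. The other probe sets of Ctsc did not keep it and had replicate 3 highest. They were at 7.37, 7.75, 8.68 and 7.28, and at 8.47, 6.42, 8.64 and 6.85. Ctsf was at 7.65, 7.73, 6.79 and 7.68, so that only replicate 3 stood apart and the array labelled positive sat with replicates 1 and 2. Ctsk, the collagenase of osteoclasts, was at 4.37, 5.14, 5.05 and 4.72, below the median probe set level on all arrays and with replicate 1 lowest.

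The remaining proteases belong to other catalytic classes. Ctsd, the main aspartic protease of the lysosome, was at 12.23, 12.20, 11.30 and 11.40 in negative replicates 1, 2 and 3 and the array labelled positive. Ctsa, a serine carboxypeptidase that also protects beta-galactosidase and neuraminidase in a complex, was at 10.74, 10.68, 10.04 and 10.35. Both showed the order of Ctsb, with differences of -0.51 ± 0.47 (limma SE) and -0.14 ± 0.37.

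The start sites of the cathepsins and of the other members were searched for the E-box that the TFEB family binds. RefSeq windows of GRCm38.p6, from 250 bases before to 50 after the start, matched 26 of the 30 genes. The E-box CACGTG, a palindrome that reads alike on both strands, was in at least 1 window of 10 of these 26 genes (38.5%) and of 8.09% of 27025 genes, and in 7.15% of all 32851 windows of this length. The longer palindrome TCACGTGA, which contains CACGTG, was in 3 of the 26 (Ctsa, Ctsd and Gla) and in 1.12% of all genes. Shown, 5' to 3' on the gene's strand with CACGTG in capitals, are sites of some of the 10 genes, to let the flanks be compared. Sites of Ctsf, Gla and Glb1, genes in which replicates 1 and 2 were not both highest, are left out.
Lgmn: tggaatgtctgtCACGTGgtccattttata
Ctsd: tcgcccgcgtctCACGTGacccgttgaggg
Ctsa: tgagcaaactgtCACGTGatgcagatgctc
Ctsl: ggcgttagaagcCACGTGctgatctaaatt
Gaa: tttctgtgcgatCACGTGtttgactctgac
Naglu: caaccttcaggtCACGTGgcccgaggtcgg
Lamp1: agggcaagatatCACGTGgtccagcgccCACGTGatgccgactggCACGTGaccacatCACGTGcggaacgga
From the start site, the first base of the CACGTG shown is at -49 (Lgmn), -98 (Ctsd), -12 (Ctsa), -236 (Ctsl), -140 (Gaa) and -73 (Naglu). Ctsd held a further copy at -245 and Ctsa a further copy at 6, neither of them shown. The sites lie at chr12:102439124-102439153 on the minus strand (Lgmn), chr7:142387908-142387937 on the minus strand (Ctsd), chr2:164833749-164833778 on the plus strand (Ctsa), chr13:64370739-64370768 on the minus strand (Ctsl), chr11:119267811-119267840 on the plus strand (Gaa), chr11:101070009-101070038 on the plus strand (Naglu) and chr8:13159088-13159160 on the plus strand (Lamp1). Lamp1 held 4 copies in this stretch. Of the 10 genes with the element, 5 were highest in replicates 1 and 2 (Lgmn, Ctsd, Ctsa, Ctsl and Naglu) and 5 were not (Ctsf, Gaa, Gla, Glb1 and Lamp1). Ctss, Cd68 and Scarb2 had the order of Lgmn and a matched window without these letters.

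The other hydrolases did not share 1 pattern. Of 12, the array labelled positive lay below the negative range in 5, within it in 6 and above it in 1, with a median difference of -0.07 log2 units, or -0.17 when all probe sets of a gene were averaged.

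Neu1, the sialidase that removes terminal sialic acids and works in the complex with Ctsa, was at 7.82, 7.63 and 8.82 in negative replicates 1, 2 and 3 and at 5.08 in the array labelled positive. Here the 3 negative arrays were high, replicate 3 highest, and the array labelled positive stood apart from them, at -2.55 log2 units from the lowest negative value. Among all genes, 0.566% lay at least 1 log2 unit below the negative range, and Neu1 was the 1 gene of the 30 that did. The difference was -3.01 ± 0.56 (limma SE) with a 95% interval of -4.57 to -1.45 and a limma adjusted p of 0.980. The other probe sets of Neu1 gave -0.53 and 0.01, and the average over all of them was -1.18.

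Of the enzymes that cut sugar chains, Gaa alone was highest in the array labelled positive. Gaa, the acid glucosidase that degrades glycogen, was at 8.64, 8.72 and 8.53 in the negative arrays and at 9.53 in the array labelled positive, above all of them. Its difference was 0.89 ± 0.20 (limma SE, adjusted p of 1.00), and 0.57 when its probe sets were averaged, the second one giving 0.24. The probe set used has the _x_at suffix of probes that can bind other transcripts too. Hexa, the alpha subunit of beta-hexosaminidase that acts on gangliosides, was at 12.26, 11.80, 11.85 and 11.59, and Man2b1, the acid alpha-mannosidase, at 11.63, 11.46, 11.24 and 11.07. Naglu, which acts on heparan sulphate, was at 7.75, 8.13, 7.54 and 7.13. In Hexa, Man2b1 and Naglu the array labelled positive was lowest, at -0.41 to -0.17 log2 units from the lowest negative value, with differences from the negative mean of -0.38, -0.37 and -0.67.

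Gla, the alpha-galactosidase, was at 7.92, 8.73, 8.96 and 8.52, and Glb1, the beta-galactosidase, at 8.96, 9.64, 9.36 and 9.60. Gusb, the beta-glucuronidase, was at 9.93, 9.85, 9.91 and 9.92. For these 3 the array labelled positive lay within the negative range, and of the probe sets used for them that of Gusb was the most even, with a negative SD of 0.04. The second probe set of Gusb, at 9.39, 8.74, 9.43 and 9.97, was highest in the array labelled positive.

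The remaining hydrolases act on lipids or on proteins. Ppt1, which removes palmitate from proteins, was at 10.88, 10.72, 10.47 and 10.06, lowest in the array labelled positive. Its difference was -0.63 ± 0.25 (limma SE), and -0.36 over the average of its 5 probe sets, of which 2 were higher. Lipa, the acid lipase for cholesteryl esters and triglycerides, was at 9.85, 9.45, 9.53 and 9.48. Asah1, the acid ceramidase, was at 11.14, 11.31, 10.51 and 11.09, and Tpp1, a tripeptidyl peptidase, at 10.58, 10.39, 9.76 and 10.40. In Asah1 and Tpp1 negative replicate 3 alone was low, as in Ctsf, and the array labelled positive lay with replicates 1 and 2.

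**Figure D3:**
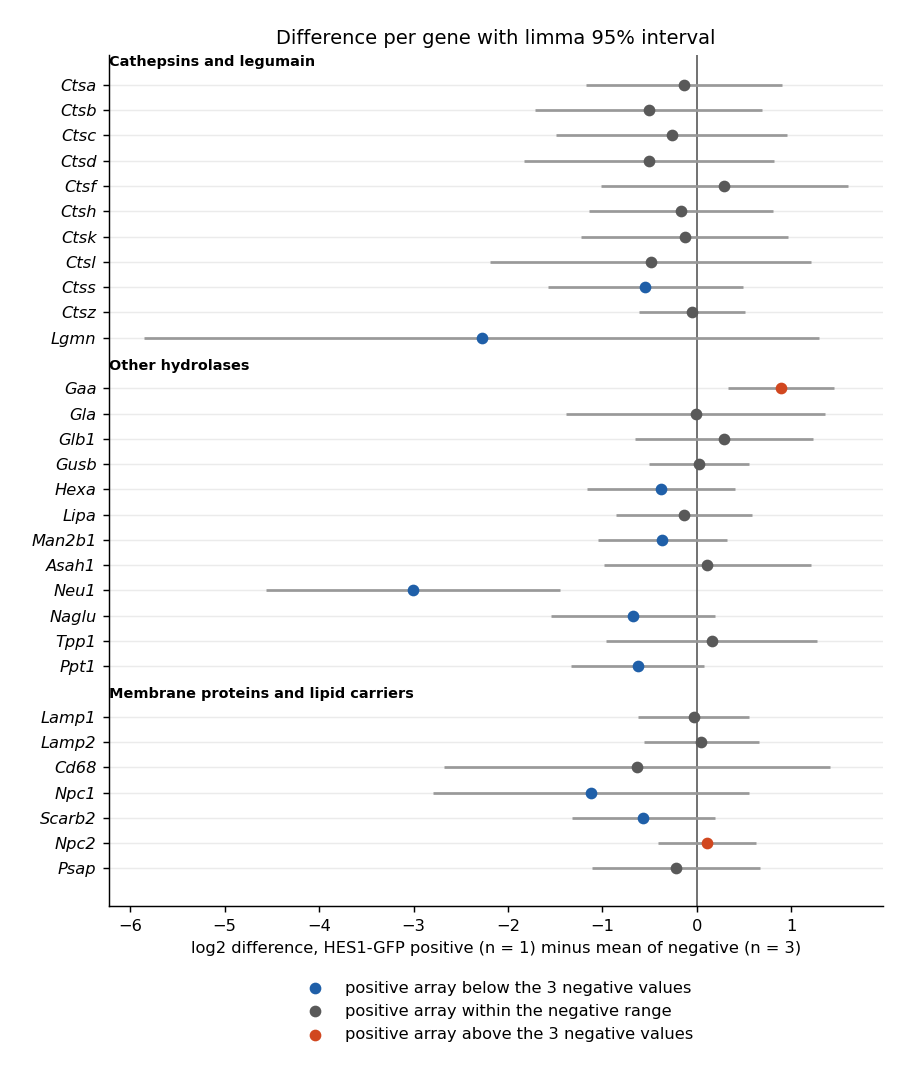
Log2 difference of the array labelled HES1-GFP positive (n = 1) from the mean of the HES1-GFP negative arrays (n = 3) for each gene (points), with limma's 95% interval (lines), coloured by whether the array labelled positive lay below, within or above the negative values. The intervals of Neu1 and Gaa leave out 0 before adjustment for all genes, and that of Lgmn, from -5.85 to 1.29, is the widest.

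Among membrane proteins and lipid carriers, Lamp1 and the probe set used for Lamp2, both encoding major wall proteins, were nearly level. Lamp1 was at 12.14, 11.95, 11.91 and 11.96 in negative replicates 1, 2 and 3 and the array labelled positive, and Lamp2, needed for fusion of autophagosomes with lysosomes, at 10.61, 10.56, 10.82 and 10.71. Their differences of -0.04 and 0.05 had 95% intervals from limma of -0.63 to 0.56 and -0.56 to 0.65. The other 3 probe sets of Lamp2 lay outside the negative range, with differences of 0.82 and 0.53 above it and -0.36 below it.

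Cd68, a LAMP-family glycoprotein used as a macrophage marker, was at 10.42, 10.15, 8.82 and 9.16. Npc1, the membrane protein that exports cholesterol from the lysosome, was at 10.05, 9.55, 8.69 and 8.30, and Scarb2, the receptor that carries glucocerebrosidase to the lysosome, at 10.50, 10.33, 10.03 and 9.72. All 3 were highest in replicates 1 and 2, and the array labelled positive was lowest in Npc1 and Scarb2 but above replicate 3 in Cd68. The differences were -0.64 ± 0.73 (limma SE) for Cd68, -1.13 ± 0.60 for Npc1 and -0.57 ± 0.27 for Scarb2, with limma adjusted p-values of 1.00. Npc2, the soluble carrier that hands cholesterol to Npc1, was at 12.61, 12.56, 12.57 and 12.69, nearly level with the array labelled positive highest, at a difference of 0.11. Psap, the precursor of the saposins that help hydrolases reach sphingolipids, was at 11.84, 11.68, 11.24 and 11.36, again highest in replicates 1 and 2.

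Probe sets of the same gene did not always point the same way. Of the 19 genes with several probe sets, 11 had all differences on 1 side and 8 had them on both. Over all 64 probe sets of the 30 genes, 28 had replicates 1 and 2 highest, against 17.6% of all probe sets with 1 gene symbol. The array labelled positive lay below the negative range in 22 of the 64 and above it in 9. The shares over all probe sets are not given for these. Averaging moved Ctsa to -0.88, Ctsc to -0.64 and Ctsh to -0.44, each further from 0 than the probe set used, and Ctsf to 0.06. It moved Gusb to 0.40 and Lamp2 to 0.26, and turned Tpp1 to -0.22. Of 5 probe sets of Ctsb, 4 gave lower values in the array labelled positive, from -0.95 to -0.18, and the other gave 0.66.

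**Figure D4:**
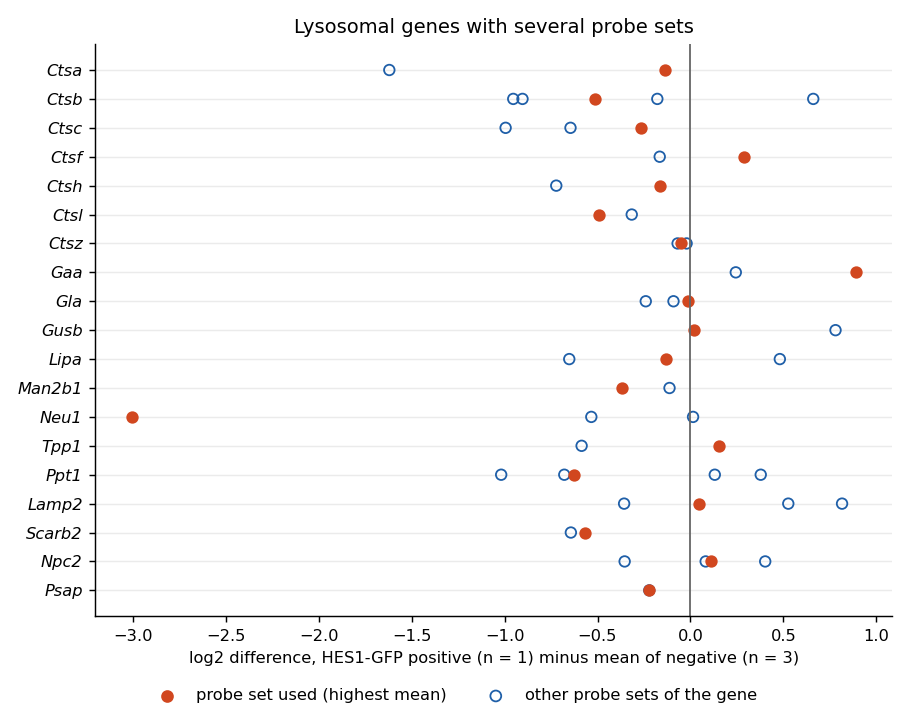
Log2 difference of the array labelled HES1-GFP positive (n = 1) from the mean of the negative arrays (n = 3) for every probe set of the 19 lysosomal genes with more than 1, with the probe set used filled and the others open. The probe sets of Ctsz, Psap and Scarb2 nearly coincide, while those of Neu1 run from -3.01 to 0.01.

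A further 7 lists, of lysosomal genes, regulators, tagging and sorting genes and cathepsin inhibitors, held 92 measured genes. Not all of the 92 encode lysosomal proteins. Together the 92 had the order of the cathepsins about as often as all genes did, with lists on either side. Replicates 1 and 2 were highest in 19 of the 92 (20.7%) and lowest in 30 (32.6%), against 17.4% and 23.7% of all genes. limma called 0 of the 92, with 2 at an unadjusted p under 0.05, and the array labelled positive lay below the negative range in 16 (17.4%, against 23.0% of all genes) and above it in 25 (27.2%, against 23.6%).

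Of 9 regulators, Tfeb was at 7.98, 7.50, 7.93 and 8.37 in negative replicates 1, 2 and 3 and the array labelled positive, highest in the last. Rptor, the scaffold of the mTORC1 kinase complex that holds TFEB in the cytoplasm, was at 9.65, 9.83, 8.53 and 8.29, and Rragc, a GTPase that recruits that complex to lysosomes, at 9.28, 8.95, 8.92 and 8.66. The order of the cathepsins held for 4 of the 9 regulators (44.4%, against 17.4% of all genes), namely Rptor, Rragc, Mitf and Mtor, of which the last 2 are named after their values were seen. The list's median difference was -0.03. Of 9 genes of mannose 6-phosphate tagging and sorting, M6pr and Gnptg lay above the negative range, with differences of 0.51 and 0.63, and Gnptab lay below it, with -0.71. Igf2r, at a difference of -0.45, was level with the lowest negative array, at 8.34 in both. M6pr and Igf2r encode the receptors of the tag, and Gnptab and Gnptg subunits of the enzyme that makes it. The 2 genes of that enzyme thus lay on opposite sides.

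Of 17 subunits of the proton pump, 6 lay above the negative range (35.3%, against 23.6% of all genes), 1 below (5.88%, against 23.0%) and 10 within, with a median difference of 0.12, and 8 had replicates 1 and 2 lowest (47.1%, against 23.7% of all genes). Atp6v0a1 was at 8.12, 8.12, 8.47 and 9.11, and the other subunits outside the range differed by less, among them Tcirg1 by 0.26, Atp6v1f by 0.23 and Atp6v0a2 by -0.27. The order of the cathepsins held for 2 of the 17 (11.8%, against 17.4% of all genes).

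Among genes of cathepsin inhibitors, replicates 1 and 2 were lowest in 5 of 9 (55.6%, against 23.7% of all genes), highest in 1 and neither in 3. Ctla2a, related to the propeptide of cysteine proteases, was at 11.53, 11.63, 12.28 and 12.41 and Ctla2b at 9.94, 8.84, 9.80 and 10.22, but these near-identical copies may share signal. Cstb, cystatin B, was at 12.30, 12.33, 12.11 and 12.38, and Serpinb6a, a serpin and the gene with the order of the cathepsins, at 8.83, 9.19, 8.07 and 7.83. The list's median difference was 0.28, with 4 genes above the negative range (44.4%, against 23.6% of all genes) and 1 below. Of 4 further cathepsin genes, Ctsg, the serine protease of neutrophil granules that was also counted among the granulocyte markers, was at 8.82, 8.37, 12.05 and 12.12, opposite to the lysosomal cysteine cathepsins. Ctse and Ctso, an aspartic and a cysteine protease, lay above the negative range, as Ctsg did, at differences of 0.14 and 0.10. Each of these 3 lay above it by only 0.07 log2 units. The remaining gene, Ctsw, a cathepsin of cytotoxic lymphocytes named after its values were seen, was at 8.29, 8.58, 6.23 and 6.31. It had the order of the cathepsins, at a difference of -1.39. When probe sets were averaged, the median difference of these 4 genes went from 0.12 to -0.0088, and the number above the range from 3 to 1.

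Further hydrolases and activators, 25 genes, were 6 below the negative range (24%, against 23.0% of all genes), 5 above (20%, against 23.6%) and 14 within, with a median difference of -0.03. Naaa, an amidase of lipid amides, was at 6.26, 5.42, 6.88 and 7.86, while Acp5, the tartrate-resistant phosphatase of macrophages and osteoclasts, was at 11.39, 10.87, 11.02 and 10.24. Sgsh, which acts on heparan sulphate as Naglu does, differed by -0.65 and Plbd2 by -0.57, both lowest in the array labelled positive. Of 19 further membrane proteins, 4 lay above and 4 below (21.1% each), with a median difference of 0.05. Slc38a9, an amino acid sensor of the lysosome, Lamtor4, a subunit of the Ragulator complex that anchors mTORC1, and Laptm4b differed by 0.80, 0.47 and 0.32, and Cln3 by -0.34.

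**Figure D5:**
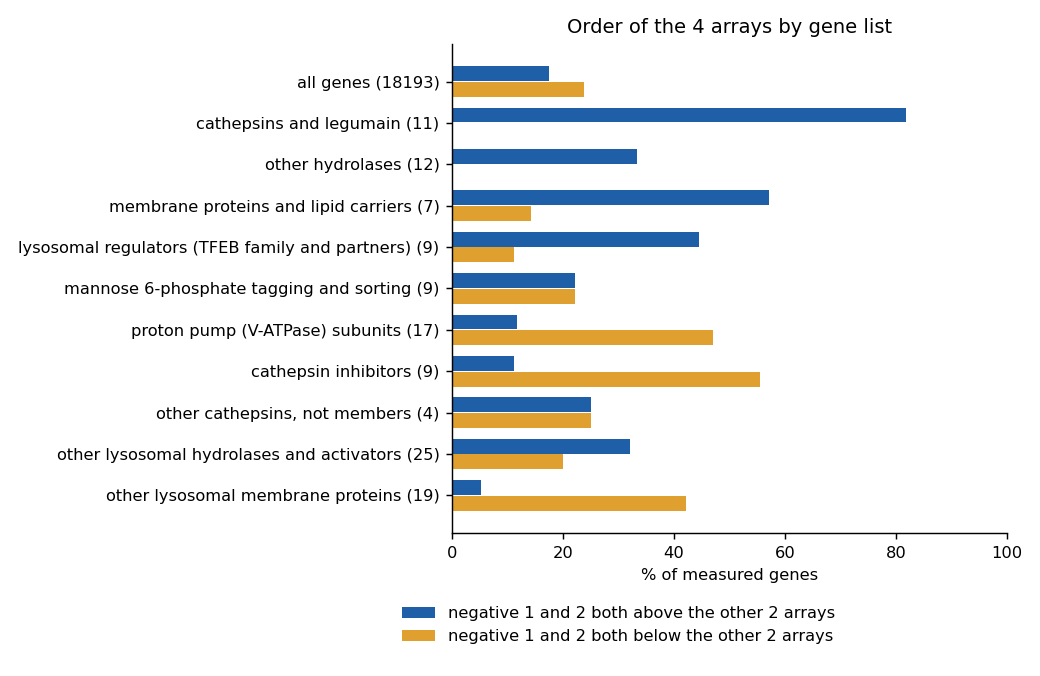
Share of measured genes (horizontal axis, %) in which HES1-GFP negative replicates 1 and 2 were both above (blue) or both below (orange) negative replicate 3 and the array labelled HES1-GFP positive, for all genes and for each lysosomal list, with the number of genes in brackets. The share with replicates 1 and 2 highest is 81.8% for cathepsins and legumain and 17.4% for all genes, and the orange bar is the longer one for all genes (23.7%) and for the proton pump, the cathepsin inhibitors and the further membrane proteins.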

How the data were processed

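RNA of 4 LSK samples was amplified from 5 ng with a Nugen Ovation kit and labelled with biotin, per the labels' protocols. Probe set intensity was made by the authors with RMA, per the submitters' processing notes, and the deposited values are on a linear scale with nearly equal quantiles, which hides any difference in RNA content. The software and its version: not given in the sources used here. Log2 was taken without a pseudocount. Of 45101 probe sets, 64 controls were set aside and 34945 had 1 gene symbol, 932 several and 9160 none. Only the first were named, and 18193 genes were each read from their highest probe set by mean. limma 3.58.1 (R 4.3.3, lmFit and eBayes, two-sided, Benjamini-Hochberg over all genes, threshold 0.05) compared positive with negative. The spread came from the 3 negative arrays (2 residual degrees of freedom), the positive group, a single array, being taken to have that spread too. The smallest one-sided p of an exact permutation test is 0.25 here. The fit was tested on simulated data. Precision is limited by having 4 arrays.

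The members and gene lists were chosen with earlier results of these data known. All 31 members were to be named, with up to 4 genes furthest outside the negative range per other lysosomal list and up to 3 genes per marker list with a median beyond 0.5 log2 units. The order of the arrays was counted after the data had been seen. Alternatives were cyclic loess, averaged probe sets, the probe set highest in the negative arrays, log2(intensity + 16), only probe sets above the median level, trend and robust settings, and leaving out each negative array.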

Additional observations from a re-analysis of the deposited data

How the results depend on the processing

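limma called 0 of the 30 lysosomal genes under the 9 alternatives listed for it, with a lowest adjusted p of 0.272 (Neu1, without negative replicate 3) and 2 to 8 genes at an unadjusted p under 0.05. Keeping only probe sets above the median level left 29 of the 30 genes to test. The count of genes below the negative range was 10 with cyclic loess, 12 with averaged probe sets and 22 over 64 probe sets. For these settings the share of all genes is not given. The count was 10 to 19 when 1 negative array was left out, against 30.3% to 34.2% of all genes. The count above was 4 with averaged probe sets and 9 over 64 probe sets. It was 3 to 5 with 1 negative array left out, against 30.1% to 36.1% of all genes. Averaging brought the median of the other hydrolases to -0.17. The medians without 1 negative array ran from -0.54 to -0.09 for cathepsins and legumain, -0.15 to -0.11 for other hydrolases and -0.40 to -0.10 for membrane proteins and lipid carriers. The order with replicates 1 and 2 highest, an addition made after seeing the data, held for 23 genes with cyclic loess (20.5% of all genes). It held for 16 with averaged probe sets (17.3% of all genes) and for 28 of 64 probe sets (17.6% of all probe sets with 1 gene symbol). Of the 30 differences, 22 kept their sign in all 8 alternatives run on them. Cyclic loess turned Gusb to -0.033 and Lamp2 to -0.0039, and averaging turned Tpp1 to -0.22. With 1 negative array left out, the differences that changed sign ran from -0.081 to 0.034 for Lamp1 (higher without replicate 1). Those that did so without replicate 2 ran from -0.37 to 0.014 for Ctsk, -0.0032 to 0.039 for Gusb and -0.0034 to 0.12 for Lamp2, and those without replicate 3 from -0.0075 to 0.46 for Ctsf, -0.13 to 0.27 for Asah1 and -0.086 to 0.32 for Tpp1. Gla ran from -0.32 to 0.20, positive without replicate 2 or 3. Where the setting itself does not show it, the cause was not tested. No paired analysis was possible because the groups share only replicate number 1. Without scanner files the background correction was not varied, and signal over background could not be judged.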
